A study of Mus musculus with 4 samples.

Results

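The genes described here are the 154 longest-probed genes of the mouse autosomes on a comparative genomic hybridization array. A gene entered when 50 or more probes stood under its name on 1 chromosome. Chromosomes 9, 12 and 15 were left out with their 26 genes of that size, and so was Lsamp, whose runs were already known. A further gene named for exclusion, Lphn2, carried only 8 probes and would not have entered. That left 154 of 181 autosomal genes with 50 or more probes, out of 22180 gene names on the array. Together they held 11857 probes, 7.45% of the 159076 autosomal probes.

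Very long genes are a special case in tumour genomes. Many of the largest replicate late and lack replication origins in their interior, and several coincide with common fragile sites, the stretches of chromosome that break when replication is slowed. Such breaks can leave deletions inside the gene, which take out a few neighbouring exons and introns while both ends of the gene keep their copy number. FHIT and WWOX are among the best known human examples, and deletions within them are common in epithelial cancers. A fragile-site deletion would therefore appear on an array as a run of neighbouring low probes inside a gene whose other probes are near 0, and hardly at all in the mean over a long gene.

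Genomic DNA came from 4 liver tumours of 4 C57BL/6J mice, labelled Trp53-/- and male, with the loss of Trp53 limited to the liver. The promoter or enzyme that made the loss liver-specific, and the ages, are not given in the sources used here, and the mice are described as untreated. Tumour DNA was labelled with Cy5 and mixed with reference DNA labelled with Cy3, and the labels give the reference as male Trp53-/- spleen, which the series design describes as pooled from 3 littermates, while the labelling protocol names liver. All 4 tumours belong to 1 group, numbered 1 to 4 in no order, and tumours 1 and 2 shared 1 slide while tumours 3 and 4 shared the other. Values are given as log2 of the tumour signal over the reference signal, centred so that the median autosomal probe of each array reads 0. Loss of 1 of 2 copies in all cells would read -1, and normal cells in a tumour sample pull every value toward 0.

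The arrays differed in noise, which sets what could be seen. The SD between neighbouring probes was 0.12, 0.37, 0.15 and 0.15 for tumours 1 to 4, so tumour 2 was the noisiest array. At least 98.8% of the member probes were well above background in both channels on every array, no member probe was saturated, and 2 values were left out as flagged. The members carried 50 to 237 probes (median 65) over 410 to 2233 kb (median 742 kb), and 8 neighbouring probes covered a median of 68.8 kb. Probe positions are on the build mm9. Exon and intron boundaries were not used here, so positions are given by probe number along each gene and by coordinate.

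Runs of 8 or more probes off the rest of their gene were found in 3 genes, each in 1 tumour: Tbc1d5, Lrp1b and Atrnl1. The probes that carry them are printed here because the runs turn on few of them. Probes 47 to 50 of Tbc1d5, the last 4 of the gene, carry its shift, probe 46 stands just before the shift, and 1 probe each decides the runs in Lrp1b and Atrnl1. Each is a 60-base oligonucleotide, printed as the deposited files give it, with no base set off in capitals.
Tbc1d5 probe 46: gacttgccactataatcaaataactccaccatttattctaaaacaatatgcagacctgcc
Tbc1d5 probe 47: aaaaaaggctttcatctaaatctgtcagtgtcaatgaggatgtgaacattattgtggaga
Tbc1d5 probe 48: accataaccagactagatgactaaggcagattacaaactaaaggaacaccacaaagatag
Tbc1d5 probe 49: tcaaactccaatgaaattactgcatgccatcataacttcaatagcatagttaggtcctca
Tbc1d5 probe 50: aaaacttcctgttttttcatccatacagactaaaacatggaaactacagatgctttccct
Lrp1b probe 112: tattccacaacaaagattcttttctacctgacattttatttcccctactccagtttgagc
Atrnl1 probe 13: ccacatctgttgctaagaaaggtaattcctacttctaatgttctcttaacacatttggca

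Taken over whole genes, the long genes lay close to the copy number of the reference. The average of a gene over the 4 tumours ran from -0.0997 in Tbc1d5 to 0.065 in Enox1, with a median of -0.0065, against -0.0083 over all 13459 autosomal genes with at least 2 probes. Wherever all genes are named, they include those on chromosomes 9, 12 and 15, which the members leave out. None of the 154 averages lay beyond 0.1 in size. Among 1912 blocks of 65 probes elsewhere on the same chromosomes, which match the members' median probe number, 3 (0.157%) did. The blocks were laid out in order with the members taken out, so a block can span a member. No member was higher and none was lower than 0 at an adjusted p under 0.05 (limma, Benjamini-Hochberg over all 13459 genes), and the share called over all genes was 0% in either direction. The smallest adjusted p of a member was 0.276 (limma). At an unadjusted p under 0.05, 0 of 154 members passed, against 19% of all genes. The limma fit shares 1 spread among genes of every probe number, and the median standard error it gave a member was 0.040. Where the spread was allowed to depend on the number of probes, an alternative chosen after seeing the data, 7 members passed an unadjusted p under 0.05, against 20.2% of all genes, and none an adjusted one, against 3.74% (smallest 0.115, limma). With slide as a random block, the fitted correlation within slides was -0.34 and no member passed.

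**Figure D1:**
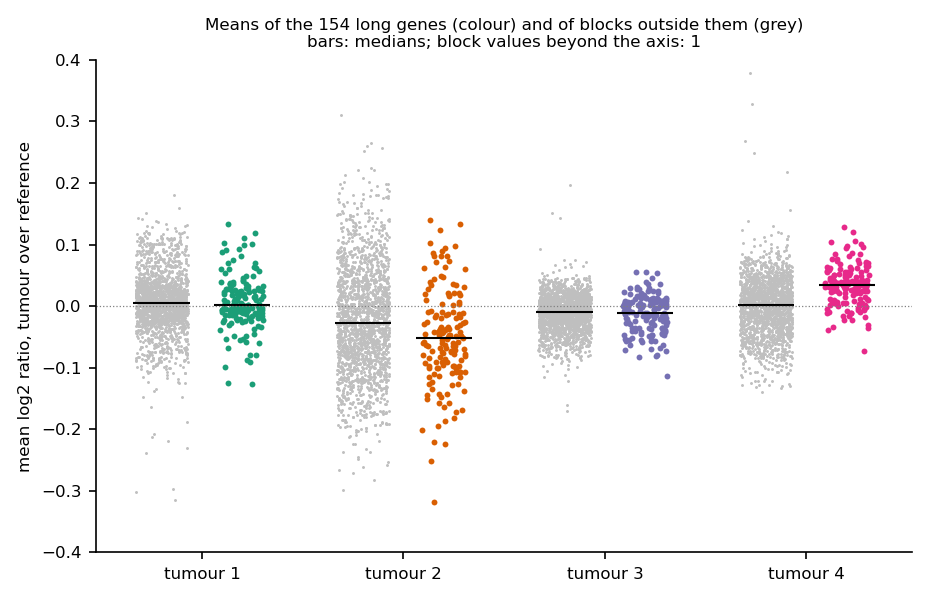
Mean log2 ratio of each of the 154 long genes (coloured points) and of each of 1912 blocks of 65 probes outside them (grey points) in tumours 1 to 4, with horizontal bars at the medians. The medians of the long genes were 0.0017, -0.051, -0.011 and 0.034, and the points of tumour 2 spread the most.

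Within single tumours the gene means spread about as the blocks did. The SD of the 154 means was 0.043, 0.078, 0.031 and 0.033 in tumours 1 to 4, against 0.050, 0.086, 0.030 and 0.046 for the blocks. Probe noise alone would give a mean of 65 probes an error of 0.015, 0.045, 0.018 and 0.019. The medians of the long genes were 0.0017, -0.051, -0.011 and 0.034, so the genes as a set read lowest in tumour 2 and highest in tumour 4. In tumour 2, 37 of 154 members lay above 0, and in tumour 4, 131 did. Tumour 2 gave the lowest of the 4 values in 100 members and tumour 4 the highest in 101. These counts are not given for the blocks. The blocks had medians of 0.0051, -0.027, -0.0090 and 0.0020, lowest in tumour 2 as well, but highest in tumour 1. Means beyond 0.1 in size were found for 7, 41, 1 and 5 of the 154 members in tumours 1 to 4. Of the blocks, 5.81%, 25.8%, 0.523% and 2.82% lay beyond 0.1. Means beyond 0.2 were found for 5 members, all low and all in tumour 2, where 1.88% of the blocks lay beyond 0.2.

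On some chromosomes all members lay on 1 side of 0 in a tumour. In tumour 1 the 16 members on chromosome 1 were all above 0, with a median of 0.085, and the 7 members each of chromosomes 7 and 17 were all below, with medians of -0.053 and -0.079. In tumour 2 the 13 members on chromosome 8 and the 11 on chromosome 10 were all below 0, with medians of -0.10 and -0.11. In tumour 3 the 10 members on chromosome 13 were all below 0, with a median of -0.058, and in tumour 4 the 9 on chromosome 2, the 8 on chromosome 4 and the 5 on chromosome 19 were among those all above 0. These chromosomes were picked after their values were seen, and no share of the blocks by chromosome is given. Over all 154 members, 37 lay above 0 in tumour 2 and 131 in tumour 4, so members on 1 side were common there. Of the 7 members beyond 0.1 in tumour 1, 4 were high and on chromosome 1, among them A830018L16Rik at 0.13, Bai3, an adhesion receptor, at 0.12 and Pard3b, a cell polarity gene, at 0.10. They were picked out after their values were seen.

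The base composition of the probes moved with the gene means in tumour 2. Across the 154 genes, which share an array and its probes, the correlation of gene mean with the percent GC of its probes was 0.058, 0.62, 0.0034 and 0.17 in tumours 1 to 4. Removing the GC trend over all probes of each array left 0.46 in tumour 2 and left its median at -0.051, while removing the trend on probe intensity moved that median to -0.030. The members spanned only 35.0% to 37.4% GC. The part of GC or intensity in the low values of tumour 2 was not tested further.

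**Figure D2:**
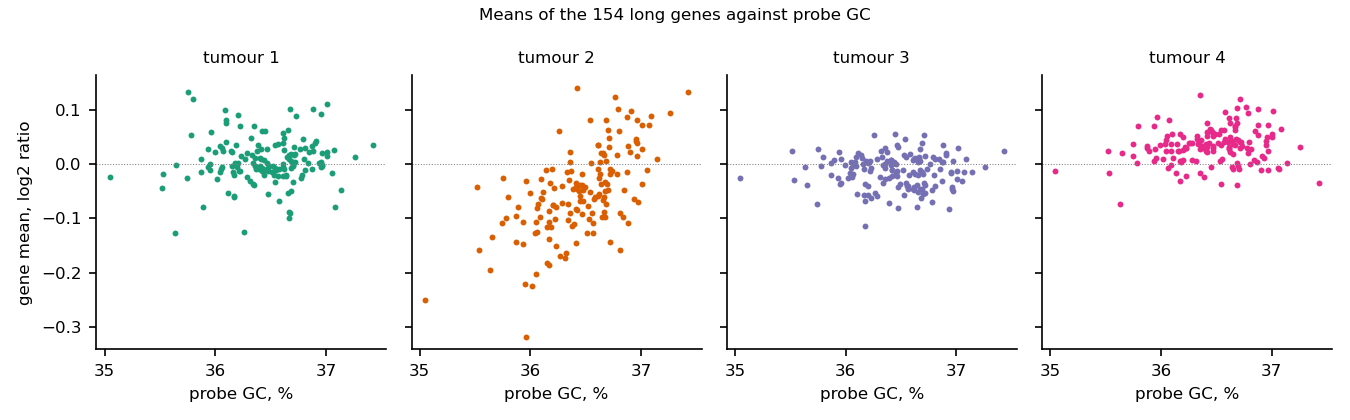
Gene mean (log2 ratio) against the mean GC of the gene's probes (percent) for the 154 long genes, 1 panel per tumour, 1 point per gene. Means climb with GC in tumour 2, where r was 0.62, and show little relation in the other 3 tumours.

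The 5 lowest averages belonged to Tbc1d5, Diap3, Ppfia2, Klhl1 and Sgcz. Tbc1d5 (chr17:50881396-51314614), whose protein switches off Rab7 on endosomes, read -0.13, -0.19, -0.0048 and -0.073 in tumours 1 to 4. It was below 0 in 4 of 4 tumours and averaged -0.10 ± 0.081 (SD, n = 4), which did not pass (limma adjusted p = 0.287). Diap3 (chr14:87058827-87539133; Diaph3 in RefSeq), a formin that nucleates actin filaments, read -0.060, -0.19, -0.11 and -0.030. It too was below 0 in every tumour and averaged -0.10 ± 0.068 (SD, n = 4), with an adjusted p of 0.276 (limma). The other 3 were low mainly in the noisy tumour 2. Ppfia2 (chr10:105910953-106365130), the liprin scaffold of synapses, read -0.000043, -0.32, -0.035 and 0.012 and averaged -0.085 ± 0.16 (SD, n = 4). Klhl1 (chr14:96504601-96914258), a kelch-like actin-binding protein of brain with the lowest probe GC of the set, read -0.024, -0.25, -0.026 and -0.012 and averaged -0.078 ± 0.12 (SD, n = 4). Sgcz (chr8:38602215-39715738), a sarcoglycan of the dystrophin complex, read -0.027, -0.22, -0.025 and 0.0099 and averaged -0.067 ± 0.11 (SD, n = 4). In these 3 genes tumours 1, 3 and 4 all lay within 0.04 of 0, and without tumour 2 the averages were -0.0077, -0.021 and -0.014. Nkain2 (chr10:31410402-32607052), which interacts with the sodium pump, had 1 of the 3 widest ranges with Ppfia2 and Klhl1, at -0.011, -0.22, -0.036 and 0.027.

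The 5 highest averages were nearly as small. Enox1 (chr14:77558856-78115036), a cell-surface NADH oxidase, read 0.028, 0.12, 0.0011 and 0.11 and averaged 0.065 ± 0.059 (SD, n = 4), with an adjusted p of 0.416 (limma). Odz2 (chr11:35831713-36752315), a teneurin that links neurons across the synapse, read 0.046, 0.10, 0.013 and 0.094 and averaged 0.064 ± 0.042 (SD, n = 4). 1700007G11Rik (chr5:98770814-99220790; Cfap299 in RefSeq) read 0.018, 0.049, 0.053 and 0.12 and averaged 0.060 ± 0.043 (SD, n = 4). All 3 were above 0 in 4 of 4 tumours, with tumours 2 and 4 above tumour 1 in each. The receptor tyrosine phosphatases Ptprt (chr2:161353837-162474779) and Ptprd (chr4:75593017-76230477), both studied as tumour suppressors in human cancers, completed the group. Ptprt read 0.016, 0.073, 0.030 and 0.10 and averaged 0.054 ± 0.038 (SD, n = 4). Ptprd read 0.011, 0.022, 0.030 and 0.13 and averaged 0.048 ± 0.054 (SD, n = 4), and without tumour 4 its average was 0.021. Over all members, 9 were above 0 in 4 of 4 tumours and 10 were below, against 14.3% and 16.8% of all genes. The latter include chromosomes 9, 12 and 15, so the 2 sets do not cover the same chromosomes.

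A gene can share the shift of its chromosome arm, so each gene mean was also set against the 25 nearest probes on each side. This difference ran from -0.086 in Tbc1d5 to 0.10 in L35549, with a median of 0.0066, against 0.00060 over all genes. No member passed an adjusted p of 0.05 in either direction (smallest 0.350, limma), and 0% of all genes did. The 1 member at an unadjusted p under 0.05, against 14.2% of all genes, was L35549 (chr6:47969959-49034706), a name taken from a sequence record and singled out here after its value was seen. It read 0.039, 0.022, 0.021 and -0.011, its difference from the flanks was 0.064, 0.17, 0.066 and 0.12, and its neighbours were therefore lower than the gene in every tumour. Tbc1d5 stood at -0.052, -0.20, -0.051 and -0.042 against its flanks and Odz2 at 0.028, 0.19, 0.026 and 0.10. Of the members, 30 lay above their flanks in 4 of 4 tumours and 14 below, where 15.3% and 14.0% of all genes did. With the spread allowed to depend on probe number, 30 members passed an unadjusted p under 0.05, 22 of them higher than their flanks, against 16.2% of all genes, and none an adjusted one (limma).

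By function, 81 of the 154 genes were on at least 1 of 7 lists, and no member of any list passed the adjusted test in either direction. The common fragile-site list matters most here. Of its 44 entries, 28 were members, and their averages had a median of -0.0083. The averages of the 26 described here lay between -0.031 for Lrp1b and 0.043 for Tmem132d. Tmem132d (chr5:128287364-128924247), a transmembrane protein of nerve cells, read 0.042, 0.10, 0.016 and 0.015 and was above 0 in 4 of 4 tumours.

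**Figure D3:**
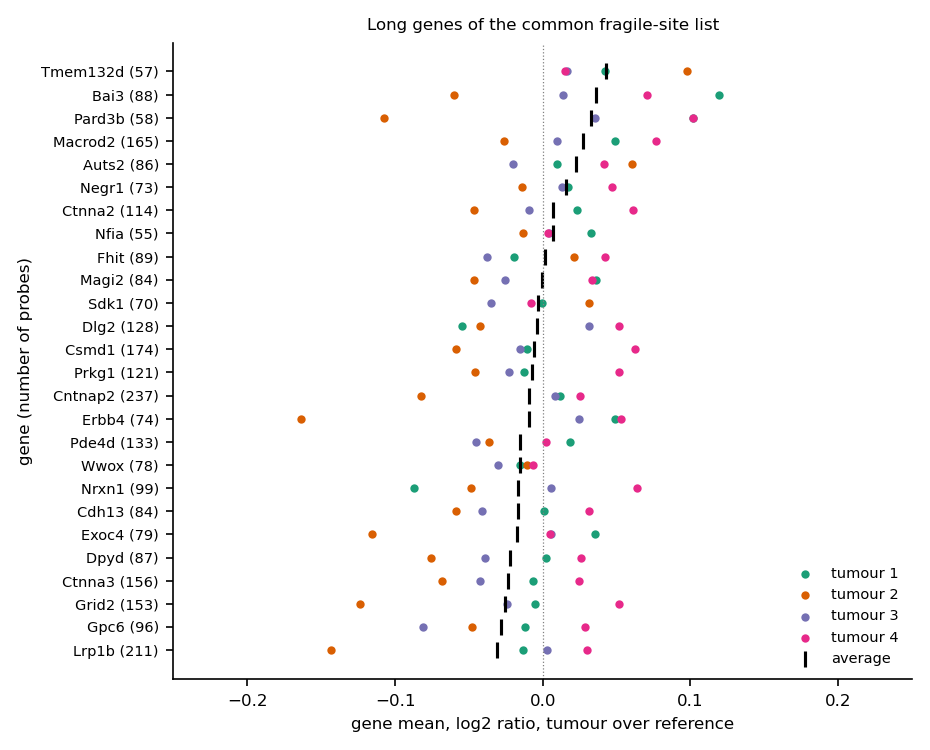
Gene means (log2 ratio) of 26 of the 28 members of the common fragile-site list in tumours 1 to 4 (coloured points) with their average (black bar), ordered by average, with the number of probes of each gene in brackets. Averages of the genes shown run from -0.031 in Lrp1b, which was 0.0063 without tumour 2, to 0.043 in Tmem132d, and the point of tumour 2 lies farthest left in 17 of the 26 genes.

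The 5 genes with the most probes, 4 of them on the fragile-site list, stayed near 0 as wholes. Cntnap2 (chr6:45017539-47250655), a neurexin-like adhesion protein and the longest member with 237 probes, read 0.012, -0.082, 0.0085 and 0.025. Lrp1b (chr2:40455765-42503595, 211 probes), a giant receptor of the LDL receptor family that is often deleted in human tumours, read -0.014, -0.14, 0.0026 and 0.030. Its average of -0.031 turned to 0.0063 without tumour 2. Csmd1 (chr8:15900846-17531172, 174 probes), a membrane regulator of complement, read -0.011, -0.059, -0.016 and 0.063. Macrod2 (chr2:140226398-142210052, 165 probes), which removes ADP-ribose from proteins and carries frequent internal deletions in human colorectal cancer, read 0.049, -0.026, 0.0098 and 0.076. Gpc5 (chr14:115500057-116924266, 168 probes), a glypican from the tumour suppressor list, read -0.036, -0.073, -0.035 and 0.037. In all 5 tumour 2 was the lowest and tumour 4 the highest, as in the medians over all members. The 18 members among 40 tumour suppressor candidates had a median average of -0.012, from -0.043 in Unc5d to 0.054 in Ptprt.

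The other lists gave medians from -0.027 to 0.022. The 28 adhesion genes of 80 listed had a median average of -0.0034, from -0.055 in Fstl5, a secreted follistatin-like protein, to 0.064 in Odz2. Fstl5 read -0.017, -0.16, -0.030 and -0.017, below 0 in 4 of 4 tumours, and averaged -0.021 without tumour 2. The 15 ion channels and transmitter receptors of 79 listed had a median of 0.0041, the lowest average was -0.027 in the glutamate receptor gene Grik2, and the highest averages were those of the calcium channel genes Cacna1c, which forms the pore, at 0.033 ± 0.043, and Cacna2d1, an auxiliary subunit, at 0.031 ± 0.053 (SD, n = 4, as for the genes that follow). The 12 kinases, phosphatases and second-messenger enzymes of 76 listed had the highest median of the 7 lists, 0.022, from -0.015 in the phosphodiesterase gene Pde4d to 0.054 in Ptprt. The 8 regulators of transcription and RNA of 84 listed had a median of 0.011, with Lpp, a LIM protein of focal adhesions, at 0.029 ± 0.020 and Auts2, a chromatin regulator, at 0.023 ± 0.036, and the transcription factor gene Sox6 lowest at -0.018. The 7 matrix and secreted proteins of 56 listed had the lowest median, -0.027, with the laminin chain Lama2 at -0.034 ± 0.083 and the growth factor Nrg3, a ligand of Erbb4, at -0.032 ± 0.069. Without tumour 2 these were 0.0027 and -0.0070, and the highest of the list, Thsd7b, a thrombospondin-repeat protein, averaged 0.015. By tumour the median of this list was -0.012, -0.048, -0.035 and 0.041.

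The search inside genes asked whether a stretch of neighbouring probes departed from the rest of its gene. In each gene and tumour the stretch with the greatest distance was taken, of 8 probes or more and no longer than the rest of the gene, where distance is the difference divided by its error from the array noise, and it was called at a distance of 5 or more and a difference of 0.2 or more. Runs were called in 3 of 616 gene and tumour pairs, 0.487%. The same search called 160 of 7648 block and tumour pairs outside the members, 2.09%. By tumour the members gave 1, 0, 1 and 1 calls, against 3.24%, 0.575%, 1.57% and 2.98% of the blocks. The exclusion of Lsamp lowered the first count: with it, 6 of 620 pairs were called. The probes of Lsamp stayed in the blocks, where they could raise the second count. So did any other shifted segment outside the members, since nothing else was taken out of the blocks. Of 117 blocks with a call, 36 had it in 2 or more tumours, against 0 of 3 members. The highest block distances were 58.6, 9.03, 25.7 and 24.6 in tumours 1 to 4. The 2 shares therefore do not show that long genes are unusually free of runs. In 134 of the 154 genes the farthest stretch stayed under a distance of 4 in all 4 tumours, a count not given for the blocks. The median farthest distance was 2.49, 2.43, 2.71 and 2.63 in the members in tumours 1 to 4, and 2.72, 2.78, 2.70 and 2.82 in the blocks. The stretches were below the rest of the gene in 76, 87, 86 and 79 genes in tumours 1 to 4, and above it in 78, 67, 68 and 75.

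**Figure D4:**
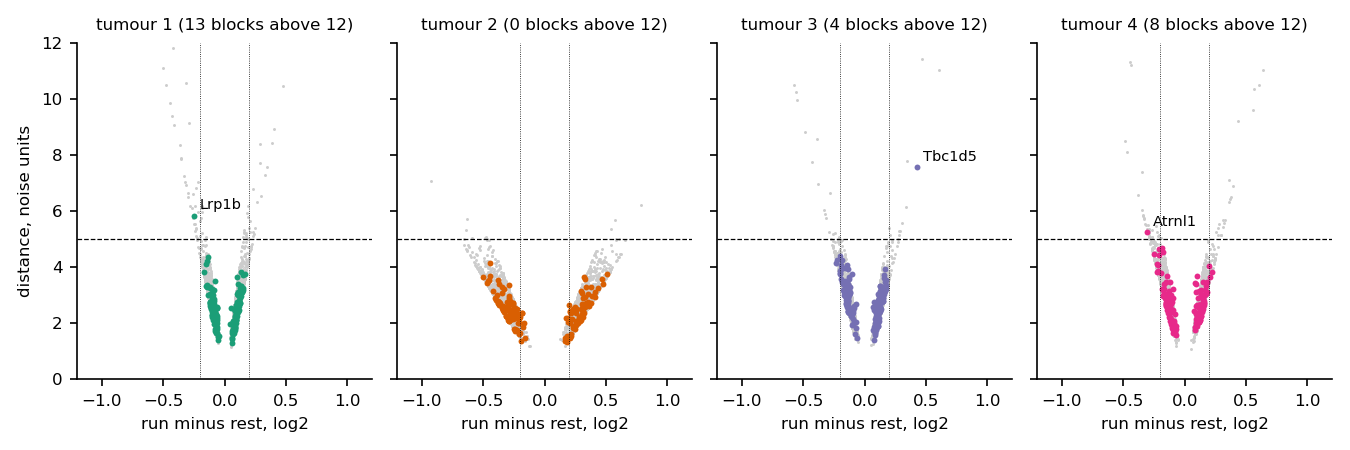
Distance of the farthest run (noise units) against its difference from the rest of the gene (log2), 1 panel per tumour. Coloured points are the 154 long genes and grey points the blocks outside them, the dashed line marks a distance of 5 and the dotted lines differences of -0.2 and 0.2. The named points, Tbc1d5 in tumour 3, Lrp1b in tumour 1 and Atrnl1 in tumour 4, are the only long genes past both limits.

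The noise of each array bounds what these counts can show. A run of 8 probes in a gene of usual size had to differ by 0.23, 0.69, 0.27 and 0.29 in tumours 1 to 4 to be called. With 2 copies in normal cells, those are the differences that loss of 1 copy would give in 29.1%, 76.1%, 34.7% and 36.3% of the cells. Loss of 1 copy over 8 probes in fewer cells would on average have fallen short of a call. Longer runs needed a smaller difference, but never under the limit of 0.2. In tumour 2 the noise kept the needed difference above 0.2 at every run length. A shift over fewer probes, shorter than the 68.8 kb that 8 probes cover, was called only if it moved the mean of a whole run past both limits. In the 3 called runs, described below, fewer than 8 of the gene's own probes carried the shift. In Tbc1d5, however, the shift went on past the end of the gene, over 157 kb in all.

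Tbc1d5 in tumour 3 was the farthest run of the set, and it was higher than the rest of the gene. Probes 43 to 50 of its 50 (chr17:51259442-51314614) averaged -0.12, 0.060, 0.35 and -0.26 in tumours 1 to 4, against -0.13, -0.24, -0.073 and -0.037 over the rest of the gene. The difference in tumour 3 was 0.42 at a distance of 7.55, and without its farthest probe 0.35 at 5.93, still past the limit. The last 4 probes carried it. Probe 46 read -0.14, 0.53, -0.10 and 0.0034 in tumours 1 to 4. Probe 47 read -0.045, -0.18, 0.85 and -0.57, and probe 48 read -0.26, 0.15, 0.54 and -0.43. Probe 49 read -0.015, -0.048, 0.65 and -0.58, and probe 50 read -0.17, -0.26, 0.65 and -0.40. From probe 47 on, tumour 3 was high and tumour 4 low at each probe, while tumour 1 stayed near its own gene mean.

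The stretch did not end with the gene. The last 4 probes and the next 4, which are named by position alone (chr17:51289949-51447427, 157 kb, chosen after the values were seen), averaged -0.12, -0.056, 0.55 and -0.48 in tumours 1 to 4. All 8 probes were above 0 in tumour 3, between 0.042 and 0.85, and all 8 were below 0 in tumour 4, between -0.91 and -0.24. The 8 probes after them averaged -0.0048, 0.14, -0.020 and 0.086, so the shift had ended there. The channels were looked at apart, each array set against the mean of the other 3 at the same probes, so that a shift on 1 array also moves the values of the others. Over the stretch the tumour channel stood at -0.30, -0.044, 0.44 and -0.10 in tumours 1 to 4, and the reference channel at -0.21, -0.13, -0.26 and 0.61. The highest value of the tumour channel was that of tumour 3, and the highest of the reference channel that of tumour 4. The part of either channel in the ratios was not tested.

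**Figure D5:**
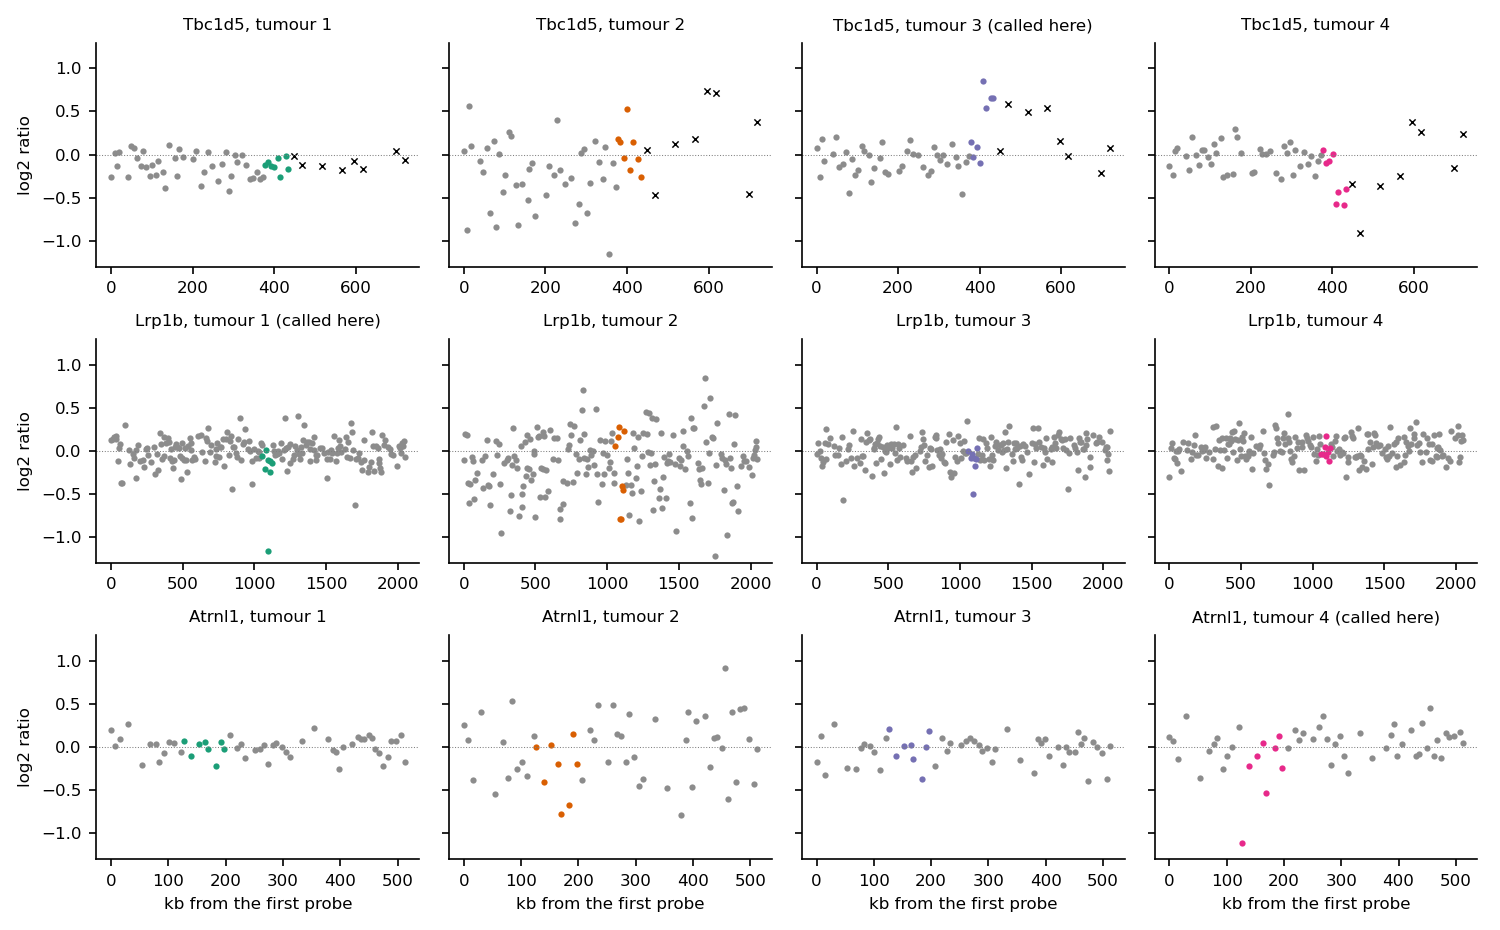
Log2 ratio of every probe of Tbc1d5, Lrp1b and Atrnl1 (rows) in tumours 1 to 4 (columns) against the distance from the gene's first probe (kb). Coloured points are the 8 probes of the called run, grey points the gene's other probes, and crosses the 8 probes beyond the end of Tbc1d5. The last probes of Tbc1d5 lie high in tumour 3 and low in tumour 4, and single low probes stand out in Lrp1b (tumour 1) and Atrnl1 (tumour 4).

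The other 2 runs each turned on 1 probe. In Lrp1b, probes 108 to 115 of 211 (chr2:41511689-41576569) averaged -0.26, -0.22, -0.12 and -0.0041 in tumours 1 to 4, against -0.0040, -0.14, 0.0073 and 0.031 over the rest of the gene. In tumour 1 the difference was -0.25 at a distance of 5.83. Probe 112 alone read -1.17, -0.79, -0.079 and 0.17, and without it the difference in tumour 1 was -0.12 at a distance of 2.65, short of the limit. In Atrnl1 (chr19:57688313-58200526), an attractin-like membrane protein, probes 13 to 20 of 54 (chr19:57815097-57885293) averaged -0.018, -0.26, -0.022 and -0.26, against 0.0058, 0.0049, -0.038 and 0.051 for the rest. In tumour 4 the difference was -0.31 at 5.23. Probe 13 read 0.073, 0.0033, 0.21 and -1.12, and without it the difference was -0.18 at 2.95. Set against the other 3 arrays, the tumour channel of tumour 1 stood at -0.081 over the Lrp1b run and the reference channel at 0.093. Over the Atrnl1 run in tumour 4 these were -0.22 and -0.0045. Probe GC inside and outside the run was close in all 3 genes, at 36.0% and 35.6% in Tbc1d5, 36.2% and 35.9% in Lrp1b, and 35.6% and 36.3% in Atrnl1.

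Neither Fhit nor Wwox gave a call. They fall outside the rule for named genes and are given because they are among the best known fragile-site genes. Fhit (chr14:10397199-11990233), a diadenosine triphosphate hydrolase, read -0.019, 0.021, -0.038 and 0.042, and its farthest stretches had distances of 3.80, 3.75, 3.49 and 2.81. Wwox (chr8:116968309-117871402), a WW-domain oxidoreductase, read -0.016, -0.010, -0.030 and -0.0064 and reached distances of 2.39, 1.79, 3.00 and 2.42. Coverage was uneven in Fhit, where 398 kb lay between a pair of neighbouring probes, so a deletion inside that gap could not have been seen. Over the whole fragile-site list, 1 of 112 pairs was called, that in Lrp1b.

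Just below the 3 calls stood AK147159, BC042662 and U58494, all in tumour 4, named here for their distance alone. Their stretches of 25, 19 and 23 probes differed from the rest of the gene by -0.19, -0.21 and -0.17, at distances of 4.66, 4.63 and 4.54. These probes were neighbours only among those under the gene's name. Between them stood 6, 31 and 6 probes under other names, which the search did not use. For contrast, the excluded Lsamp, an adhesion protein of neurons on chromosome 16 with 67 probes, was called in 3 tumours, with differences of -0.90, -0.94 and 1.01 in tumours 2, 3 and 4 and distances up to 20.7. Lsamp and the end of Tbc1d5 both read with opposite signs in tumours 3 and 4.

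At the limit of 50 probes, the genes on either side were few. The 6 members with exactly 50 probes averaged from -0.10 to 0.011, and the 5 genes with 49 probes, just outside, from -0.012 to 0.068. Of the 6, 5 averaged below 0, and of the 5, 4 averaged above 0. The lowest of the 6 was Tbc1d5, so the lowest average of the set belongs to a gene with the fewest probes.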

How the data were processed

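Genomic DNA of 4 tumours was compared with reference DNA on 2-colour Agilent arrays, 1 array per tumour, with no dye swap. Per the file headers, the authors' software was Agilent Feature Extraction 12.0.1.1 (12.0.0 per the submitters' processing notes), with probe positions on mm9, and the deposited processed intensities had their background subtracted and their dyes normalized within each array. The deposited mean and background intensities were used for normexp alone, and the deposited log10 ratio was used to check the direction. From the intensities, log2 of red over green was computed, flagged spots were left out and arrays were centred on the autosomal median, with no loess or quantile step. The array count limits the precision of means.

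Gene means, alone and minus flanks, were tested against 0 with limma 3.58.1 (R 4.3.3), which leaves out the reference's own spread. Runs were searched in Python 3.11.15 with numpy 2.4.6 and pandas 2.3.3. The fits and the search were tested on simulated data. Nothing says how the 4 mice were related, so p-values measure the spread among these samples. The members and lists were chosen with earlier results of these data known. Named genes were the 5 highest and 5 lowest averages, the 5 with the most probes, the 3 widest ranges, called runs and the 2 members of each list with the largest average in size. Some members' own values, 1 of the named genes among them, are not reported here. Of the 154 names, 110 matched a RefSeq symbol (GRCm38, used for names alone), 20 a synonym and 24 none. Alternatives changed background correction, centring, trends, dim probes, probe average, slide, tumours and run limits.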

Additional observations from a re-analysis of the deposited data

Results flagged for a closer look

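Among 57 results with a value in each of the 4 tumours, 8 had 1 tumour far from the other 3, by Dixon's rule on the gap to the nearest tumour over the whole range. Chance gives about 1 in 20, but most of these results are named genes picked for extreme averages or wide ranges, which can raise the share, so no comparison with that rate is made. Tumour 2 was the far one in 7 of the 8. Its array noise was 0.37, against 0.12 to 0.15 in the others. In tumour 2 the gene means of Ppfia2 (-0.32), Klhl1 (-0.25), Sgcz (-0.22), Fstl5 (-0.16) and Cntnap2 (-0.082) lay below the other tumours, as did Tbc1d5 minus its flanks (-0.20). The remaining case was Ptprd in tumour 4, at 0.13, where the other 3 tumours read 0.011 to 0.030.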

How the results depend on the processing

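In each of the 28 alternatives of the gene mean and the gene mean minus flanks, no member passed an adjusted p of 0.05 (limma), and the smallest adjusted p of a member was 0.108. The median of the member averages was -0.034 when arrays were centred on the mode. Of 728 values of named members under the alternatives, 697 moved by less than the spread between tumours and 31 by more, and none changed a call. The number of called runs depended on the limits. From 3 it went to 1 with normexp background correction (Tbc1d5), 1 at a distance of 6 (Tbc1d5), 12 at a distance of 4, 0 with runs of at least 12 probes, 0 with even probes alone, 0 with the noise of the gene's own probes, and 1 in the 59 members of at least 75 probes (Lrp1b). For these changes no share of the blocks is given, so the counts have no background beside them. The noise of a gene's own probes includes the run itself. The highest probe SD of the members was that of Tbc1d5 in tumour 3 (0.25) and of Atrnl1 in tumour 4 (0.24). The array noise there was 0.15 in each. In tumour 1 it was not that of Lrp1b. Counting any 8 neighbouring probes on 1 side of the gene mean gave 142 of 616 pairs, and 23.0% of the block pairs. Leaving out 1 tumour in turn gave 2 to 3 called runs, but each tumour was searched alone. Leaving 1 out could therefore only remove its own calls, and this count says nothing about how stable they are. Subtracting the mean of the other 3 tumours, chosen after seeing the data, called Tbc1d5 in tumours 3 and 4 and nothing else. The subtraction carries part of the shift of tumour 3 into tumour 4 with its sign reversed. Without it, probes 43 to 50 of Tbc1d5 differed in tumour 4 by -0.23 at a distance of 3.83, short of a call. The cause of these changes was not tested, and array noise limits tumour 2 the most. No paired analysis was possible because the tumours form 1 group.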

Other observations

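The later probes of a gene were also set against its earlier probes, split at the middle probe. In 39 of the 154 genes (25.3%) this difference had the same sign in 4 of 4 tumours, 22 higher and 17 lower at the later probes, and in 27.9% of the blocks outside the members it did. The highest and lowest averages, named after their values were seen, were 0.10 in Fstl5, a secreted follistatin-like protein, and -0.092 in Diap3, the actin-nucleating formin. Fstl5 differed by 0.046, 0.17, 0.13 and 0.050 in tumours 1 to 4 and Diap3 by -0.040, -0.25, 0.014 and -0.091, with the largest difference of each in tumour 2. No test was run on these differences.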
